A study of Mus musculus with 3 samples.

Results

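The peaks described here are those of the transcriptional regulators Esrrb, Tfcp2l1, Tbx3 and Prdm14 in a map of the protein Tex10 on chromatin of mouse embryonic stem (ES) cells. Members are every peak of the deposited list that shared at least 1 base with a fixed window named for each gene. The genes and windows themselves were chosen with earlier results of these data known. The windows, in genome build mm9, were chr12:87650000-87910000 for Esrrb (260 kb), chr1:120470000-120640000 for Tfcp2l1 (170 kb), chr5:120070000-120190000 for Tbx3 (120 kb) and chr1:13050000-13170000 for Prdm14 (120 kb). They held 14 of the 5189 peaks in the list: 6 for Esrrb, 3 for Tfcp2l1, 3 for Tbx3 and 2 for Prdm14. No mm9 gene annotation was used here, so whether each window holds its whole gene was not checked, and a peak is named below for its window, not for a gene it was shown to belong to.

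The cells were of the J1 line, of 129SV background, and were grown with serum and leukaemia inhibitory factor (LIF) on gelatin. They carried a piggyBac transposon with a 3xFlag-Tex10 transgene, called T10F10 in the labels, so the tagged protein was expressed ectopically. No label says whether T10F10 is a single clone. From these same cells 3 libraries were made, by immunoprecipitation with a FLAG antibody, by immunoprecipitation with normal mouse IgG, and from input DNA. The peak list is that of the FLAG library, and the other libraries were not used here. There is no replicate, so no value below has an error between experiments. The list gives no read counts, and the depth behind each peak is unknown.

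Mouse ES cells can be held in a naive state, which resembles the cells of the epiblast before implantation. A network of transcription factors maintains this state and is fed by LIF through Stat3 and by release of repression by Tcf7l1. Esrrb is an orphan nuclear receptor, Tfcp2l1 a factor of the grainyhead/CP2 family that responds to LIF and Stat3, Tbx3 a T-box factor, and Prdm14 a PR-domain protein that restrains FGF signalling and the de novo DNA methyltransferases. Tex10 is a nuclear protein known from a complex with Pelp1 and Wdr18 that acts in ribosome assembly, and the series title places it in the control of super-enhancers. Super-enhancers are dense groups of enhancers beside genes of cell identity.

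Sequences of the peaks themselves are not printed, because no mm9 genome was used here. The start-site sequences of the member genes are shown instead, as the regulatory DNA nearest to each gene's first transcribed base. The table of RefSeq promoters used here (build GRCm38.p6) holds 2 for Esrrb and 1 for Tfcp2l1, and none was matched for Tbx3 and Prdm14. Each is on the plus strand and runs 5′ to 3′ over 300 bases. Capitals mark the first 50 transcribed bases after the 250 bases that precede the start.
Esrrb, chr12:86360867-86361166: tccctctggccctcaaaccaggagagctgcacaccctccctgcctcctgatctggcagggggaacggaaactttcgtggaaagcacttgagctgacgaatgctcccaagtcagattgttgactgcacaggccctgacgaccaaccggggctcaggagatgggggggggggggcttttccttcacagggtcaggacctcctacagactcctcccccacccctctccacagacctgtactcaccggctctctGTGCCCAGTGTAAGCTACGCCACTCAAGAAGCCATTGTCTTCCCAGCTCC
Esrrb, chr12:86421394-86421693: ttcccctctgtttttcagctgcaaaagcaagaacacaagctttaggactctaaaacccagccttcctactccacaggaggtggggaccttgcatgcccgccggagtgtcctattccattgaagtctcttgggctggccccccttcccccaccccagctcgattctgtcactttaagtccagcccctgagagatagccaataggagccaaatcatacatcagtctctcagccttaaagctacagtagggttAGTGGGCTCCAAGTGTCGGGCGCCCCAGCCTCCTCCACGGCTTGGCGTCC
Tfcp2l1, chr1:118627695-118627994: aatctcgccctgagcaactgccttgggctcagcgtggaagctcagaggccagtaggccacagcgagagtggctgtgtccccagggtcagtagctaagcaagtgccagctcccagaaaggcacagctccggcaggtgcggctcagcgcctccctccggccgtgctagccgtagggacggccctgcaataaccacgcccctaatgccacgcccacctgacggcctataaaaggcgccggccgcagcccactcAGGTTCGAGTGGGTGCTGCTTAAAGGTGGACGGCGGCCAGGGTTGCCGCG

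These coordinates belong to another build than the peaks and cannot be set beside them, so whether a peak covers any of these start sites was not determined. The Esrrb promoters had a GC content of 60% and 55.3% and held 7 CpG dinucleotides each, against a median of 52.7% and 7 over the 32851 promoters of the table. The Tfcp2l1 promoter was richer, with a GC content of 65.3% and 21 CpG dinucleotides, more than 75.2% of the table. All 3 were searched on both strands for 6 sets of letters bound by factors of the pluripotency network, and none held any of them. The letters were TCAAGGTCA for Esrrb, found in 0.423% of all promoters of the table, CCTTTGTC (1.47%) and CATTGTT (3.78%) for Sox2, ATTTGCAT (1.74%) for the octamer of POU factors, GGTGTGAA (0.807%) for T-box factors and GGGTGTGGC (1.35%) for Klf factors. The T-box and Klf words overlap in the letters GGTGTG. The absence says only that these letters are not in these windows of 300 bases.

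Tex10 peaks were found in each of the 4 windows, but they differed widely in score between them. The score is the number the authors gave each peak. Its scale is not stated, and it serves only to rank peaks within the list, where it ran from 1.31 to 432 with a median of 5.22 and quartiles of 3.75 and 7.73. The 14 peaks scored between 2.11 and 44.8, with a median of 4.72. Without the Tfcp2l1 window the median was 5.60, so its side of the list's median rests on that window. Of them, 6 (42.9%) lay above the median of the list, beside 50% of all peaks, and 3 (21.4%) scored at least 10, beside 14.5% of all peaks. By the highest score in the window the order was Esrrb (44.8), Prdm14 (12.6), Tbx3 (5.60) and Tfcp2l1 (4.45). With a single list, none of these differences has a test.

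**Figure D1:**
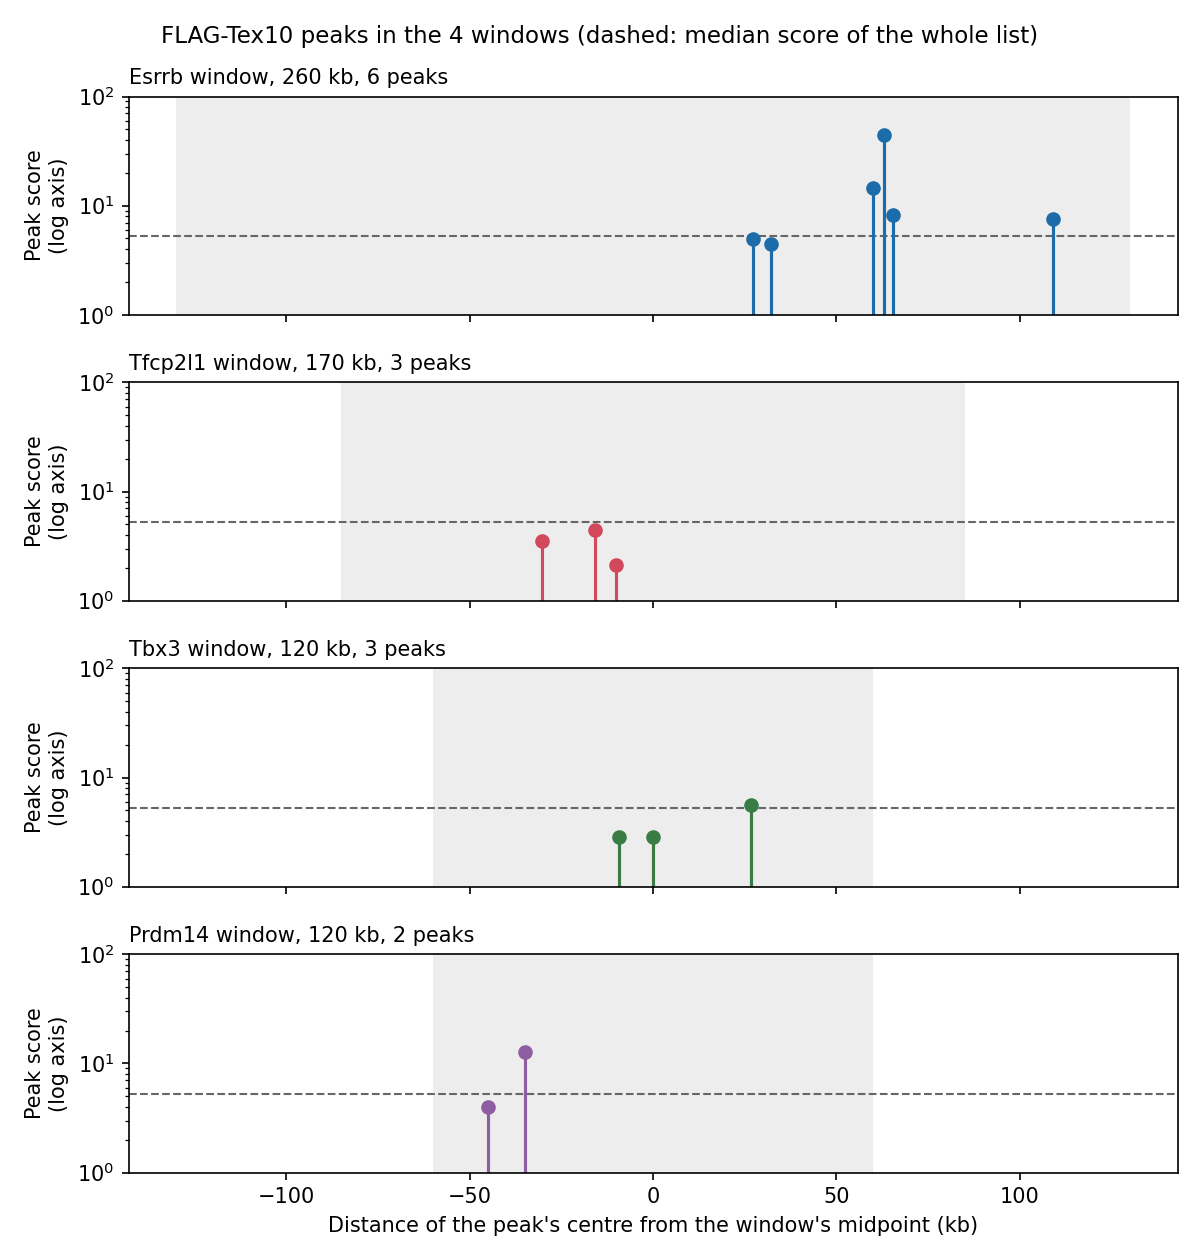
Score of each FLAG-Tex10 peak (vertical axis, log scale) against the distance of its centre from the midpoint of its window in kb (horizontal axis), for the windows of Esrrb, Tfcp2l1, Tbx3 and Prdm14. Grey marks the window and the dashed line the median score of the list, 5.22. The 3 neighbouring Esrrb peaks 59.84 to 65.45 kb above the midpoint include the highest, at 44.8, and all 3 Tfcp2l1 peaks lie below the dashed line.

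The Esrrb window, the longest at 260 kb, held the most peaks and the highest score of the 4. Per Mb it held fewer peaks than the Tbx3 window (23.1 against 25). Its 6 peaks lay within 81.9 kb towards the upper end of the window, and the first 157.3 kb held none. The core was a stretch of 3 peaks over 6.16 kb (chr12:87839479-87845636), of which the peaks covered 30.7%. A stretch is a run of peaks less than 12500 bp apart, a spacing used to join enhancers to super-enhancers.

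In the middle of this stretch lay the highest-scoring of the 14 peaks, chr12:87842442-87843234, 793 bp wide with a score of 44.8. It ranked 90 in the list and 5 among the 195 peaks of chromosome 12. The peak before it, chr12:87839479-87840203, was 725 bp wide, scored 14.6 and ranked 367 in the list. The peak after it, chr12:87845264-87845636, was 373 bp wide and scored 8.13. All 3 of the stretch lay above the upper quartile of scores, 7.73. Only 2238 and 2029 bp separated the neighbours. By its highest score the stretch ranked 5 among the 156 autosomal stretches of at least 3 peaks, whose median was 8.54, although it was shorter than their median length of 8.87 kb.

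The other 3 Esrrb peaks were weaker. A pair lay 27187 bp below the stretch. Its members scored 4.97 (chr12:87807262-87807485, 224 bp) and 4.47 (chr12:87811762-87812291, 530 bp), both under the median of the list. The first of them had the narrowest width that occurs in the list, 224 bp. A single peak 43157 bp above the stretch, chr12:87888794-87889169, scored 7.48, which was above 73.6% of the list.

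At Prdm14 a weak and a strong peak formed a pair. The stronger, chr1:13074812-13075396, was 585 bp wide and scored 12.6, above 90.5% of the list and rank 24 among the 332 peaks of chromosome 1. Its partner, chr1:13064786-13065034, was 249 bp wide and scored 3.95, above 28.2% of the list. They stood 9777 bp apart, near the lower end of the window, and the 94.6 kb above them held no peak. By its higher score the pair ranked 77 among 469 autosomal pairs, and its length of 10.61 kb compares with a median of 2.68 kb over those pairs. The pairs in the Tbx3 (9.75 kb), Tfcp2l1 (5.89 kb) and Esrrb (5.03 kb) windows were longer than that median too. Prdm14 is a short gene, 13.7 kb in the GRCm38.p6 table. The protein-coding genes on either side of it in that table are Slco5a1 and Ncoa2, and the gene to which either peak belongs was not determined.

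At Tbx3 the 3 peaks were of similar width and mostly low in score. Those at chr5:120120540-120120961 (422 bp) and chr5:120129866-120130293 (428 bp) had exactly the same score, 2.88, which was above only 8.92% of the list. They formed a pair 8904 bp apart, which ranked 468 among 469 autosomal pairs by its higher score. The third peak, chr5:120156523-120156960, was 438 bp wide and scored 5.60, above 55.1% of the list. It was the 1 Tbx3 peak above the median. A further 2 peaks lay just outside the window, 34.7 and 39.7 kb below its lower edge, with scores of 6.70 (chr5:120034893-120035345) and 4.71 (chr5:120029919-120030297). The stronger of these outscored every Tbx3 peak inside the window. Tbx3 itself is 14.2 kb long in the GRCm38.p6 table and stands between Med13l and Tbx5, another T-box gene.

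The Tfcp2l1 window had the lowest highest score of the 4. Its 3 peaks, of which 0 passed the median of the list, lay within 20.5 kb. The lowest in position, chr1:120524378-120525004, was 627 bp wide, wider than 94.7% of the list, yet it scored 3.54, above only 20.7%. The next, chr1:120538988-120539404, was 417 bp wide and scored 4.45. The last, chr1:120544643-120544877, was 235 bp wide and scored 2.11, above only 1.79% of the list, which placed it 329 among the 332 peaks of chromosome 1. It was also the lowest of the 14 peaks. The last 2 formed a pair 5238 bp apart, and the other stood alone, 13983 bp from its neighbour. No further peak of the list lay within 262.0 kb below or 305.6 kb above the window. In the GRCm38.p6 table Tfcp2l1 stands between Clasp1 and Gli2 and is 57.2 kb long.

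The member peaks were wide more often than they were strong. Their median width was 425 bp (224 to 793 bp), against 314 bp for the list with quartiles of 253 and 402 bp. Of the 14, 11 (78.6%) were wider than the median of the list, beside 49.8% of all peaks. All 3 Tbx3 peaks and the Tfcp2l1 peaks of 627 and 417 bp were wider than the upper quartile, with scores of only 2.88 to 5.60. The 2 widest of all 14 were the 2 strongest, both in the Esrrb stretch. Width and score come from the same library and are not independent measures.

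Each member was therefore also ranked among the peaks of the list within 10% of its own width, a comparison chosen after the values were seen. By this ranking 6 of the 14 members scored above the median of peaks of like width, close to the even split that a median gives by definition. The median percentage of like peaks that scored lower was 38.0 over the 14 members. All 3 Tfcp2l1 peaks scored low for their width: the percentages of like peaks that scored lower were 7.51, 28.2 and 2.12. The Tbx3 peaks were also in the lower part, above 7.48%, 7.18% and 44.1% of peaks of like width. In contrast, 5 of the 6 Esrrb peaks lay above the middle, and the strongest was above 95.4% of the 108 peaks of like width. The narrow Esrrb peak of 224 bp, which was under the median of the whole list, was above 71.5% of its like. The exception was the Esrrb peak of 530 bp, above only 25.5%. The Prdm14 pair was divided, at 78.7% for the strong peak and 31.9% for the weak one.

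**Figure D2:**
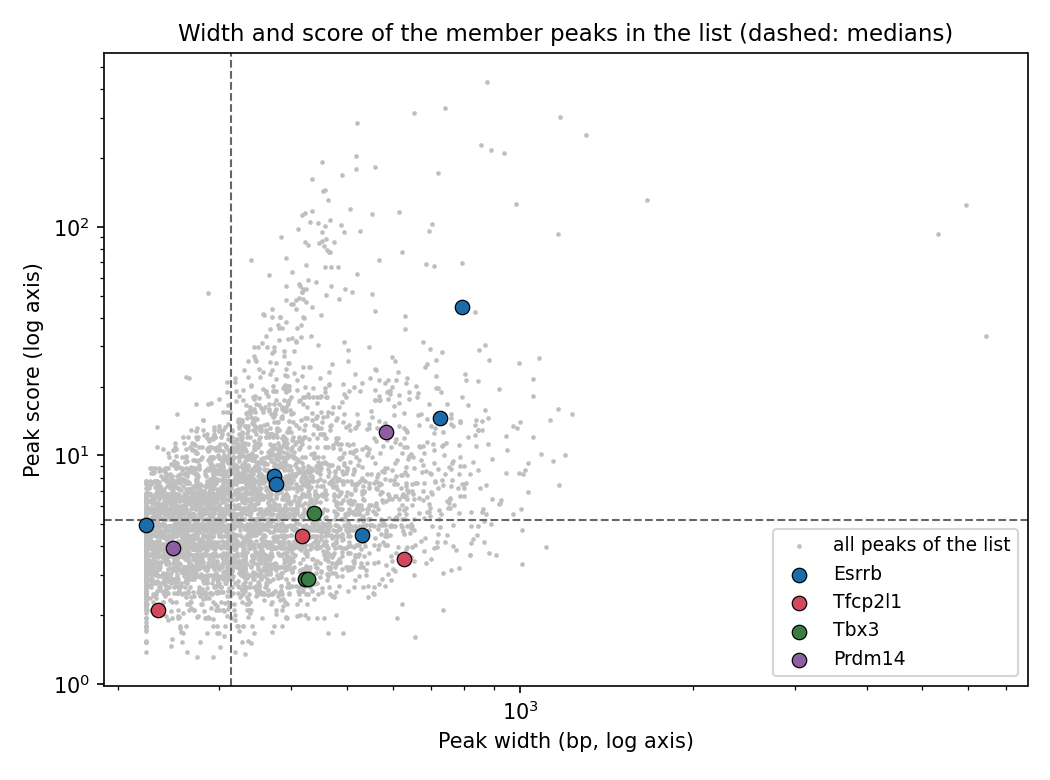
Score (vertical axis, log scale) against width in bp (horizontal axis, log scale) for all 5189 peaks of the list (grey) and for the 14 peaks of the Esrrb, Tfcp2l1, Tbx3 and Prdm14 windows (coloured). The dashed lines are the medians of the list, 314 bp and 5.22, and 11 of the 14 coloured points lie to the right of the vertical line, while 6 lie above the horizontal line.

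Most members had another peak close by. Of the 14, 3 (21.4%) lay in a stretch of at least 3 peaks, beside 11% of the 5120 autosomal peaks. A further 8 (57.1%) lay in pairs, beside 18.3%, and 3 (21.4%) were single, beside 70.7%. Each of the 4 windows held 1 pair, and the Esrrb window also held the stretch. The genes were picked with earlier results of this list in view, so these shares are descriptions only.

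Peaks lay 8.05 (Prdm14) to 12.1 (Tbx3) times as densely in the 4 windows as over the autosomes. Because the windows were picked with earlier results of this list in view, the densities are descriptions only. The density was 23.1 peaks per Mb at Esrrb, 17.6 at Tfcp2l1, 25 at Tbx3 and 16.7 at Prdm14, against 2.07 over the 19 autosomes. Set against their own chromosomes, the windows had 14.4 (Esrrb), 10.5 (Tfcp2l1), 11.1 (Tbx3) and 9.9 (Prdm14) times the mean density. These ratios rest on 2 to 6 peaks each and depend on where the window edges were set. With 50 kb added at both ends, peaks per Mb were 16.7 at Esrrb, 11.1 at Tfcp2l1, 22.7 at Tbx3 and 9.09 at Prdm14. Peaks covered 1.16% of the Esrrb window, 1.07% of that of Tbx3, 0.752% of that of Tfcp2l1 and 0.695% of that of Prdm14, compared with 0.0732% of the autosomes.

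The autosomes were also cut into adjoining tiles of each window's length, gaps in the assembly included. For the same reason, the tile shares by number and by highest score are descriptions only. Of the 260 kb tiles, 0.684% held at least the 6 peaks of the Esrrb window. The share with at least 3 peaks was 3.03% of the 170 kb tiles (Tfcp2l1) and 1.79% of the 120 kb tiles (Tbx3), and 4.96% of the latter held at least the 2 of Prdm14. Most tiles held no peak at all, so the shares were also taken over tiles with a peak: they were then 2.31% for Esrrb, 13.8% for Tfcp2l1, 10.6% for Tbx3 and 29.4% for Prdm14. By number of peaks, then, Esrrb lay farthest out in the list and Prdm14 least far.

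Ranked by the highest score, the windows spread out much more. Among tiles with a peak, 2.52% had a highest score of at least that of the Esrrb window and 12.7% at least that of Prdm14. The share was 52.7% for Tbx3 and 71.8% for Tfcp2l1, so most tiles with a peak had a best peak at least as high as these. Tfcp2l1 and Tbx3 thus lay farther out in the list by number of peaks than by highest score, and Prdm14 farther out by score than by number.

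**Figure D3:**
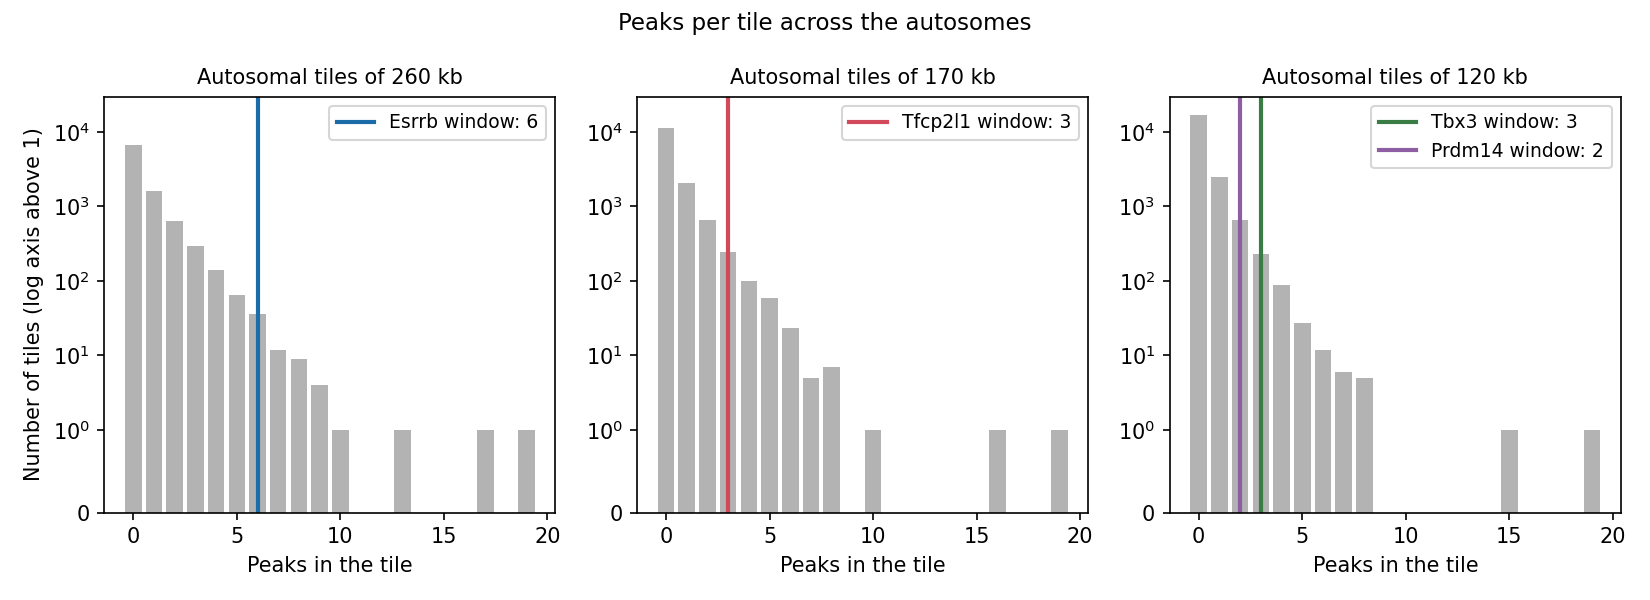
Number of autosomal tiles (vertical axis, log scale above 1) by the number of peaks they hold (horizontal axis), for tiles of 260, 170 and 120 kb. Coloured lines mark the windows of Esrrb (6 peaks), Tfcp2l1 (3), Tbx3 (3) and Prdm14 (2), and most tiles stand at 0.

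Scores that recur exactly are common in the list and do not set the members apart. They were carried by 81.7% of all peaks and by 10 of the 14 members (71.4%). The score of the second Tfcp2l1 peak, 4.45, occurred in 46 peaks of the list, and that of the lower Tbx3 pair, 2.88, in 20. In contrast, 3 Esrrb peaks, the strongest among them, and the weaker Prdm14 peak had scores that no other peak shared.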

How the data were processed

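The series measured DNA bound by FLAG-tagged Tex10 in J1 mouse ES cells, with 3 libraries assigned to 3 groups of 1 by antibody or title. The authors deposited the FLAG library's peaks with a score each. No header names the caller, control or scale. The submitters' processing notes name build mm9 and, without their roles, the tools bedtools 2.18.1, SAMtools 0.1.19, Bowtie 1.0.0 and FastQC 0.10.1. Starts are printed 1-based.

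Peaks sharing at least 1 base with a window were members. No test was made, since there is 1 list. Members were set beside the whole list or its autosomal peaks. Tiles were laid from the first base of each autosome, and a peak was counted by its midpoint. Lengths of mm9 chromosomes came from GenomeInfoDb 1.38.1 (R 4.3.3). Python 3.11.15, numpy 2.4.6, pandas 2.3.3, scipy 1.17.1 and matplotlib 3.10.9 were used. Counting was tested on a simulated peak list. Every member peak is named. Members, windows and gene lists were chosen with earlier results of these data known. Gene names, order and lengths came from the RefSeq table of GRCm38.p6, whose coordinates were not compared with the peaks. Other genes of the network were not placed on mm9 and are not reported. Alternative overlaps, edges, score thresholds, spacings and tiles were tried.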

Additional observations from a re-analysis of the deposited data

How the results depend on the processing

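Of 58 alternative values, 44 stayed close to the reported one and 14 moved. Close meant within 1.5 times for a count or density, and within the 95% binomial interval for a median or share. Whole-peak and midpoint overlap, windows shortened by 10 kb and joining under 500 bp kept the same 14 peaks, so their closeness says little. The interval for the median score treats peaks as independent and ran from 2.88 to 12.6, so even a median of 5.60 counted as close. The count of 14 peaks fell to 6 with only peaks above the median score and to 3 with a score of at least 10. Under the first of these the density was 0 per Mb at Tfcp2l1, 8.33 at Tbx3 and 8.33 at Prdm14. With a score of at least 10 it was 7.69 at Esrrb, 0 at Tfcp2l1, 0 at Tbx3 and 8.33 at Prdm14. These falls in density follow from removing peaks, which thins the whole list too: 50% and 14.5% of all peaks passed these thresholds. The density over the autosomes was not recomputed, so the filtered densities cannot be set beside 2.07 per Mb. At a score of at least 10 the share of tiles reaching the window was 0.726% for Esrrb (0.684% with all peaks). For Prdm14 it was 3.19% (4.96% with all peaks), which places that window farther out, not nearer. With 50 kb added at both ends the density was 16.7 at Esrrb, 11.1 at Tfcp2l1 and 9.09 at Prdm14, where no peak was gained. At Tbx3, which gained the peaks below its lower edge, it was 22.7. Members in stretches of at least 3 rose from 3 to 6 with peaks joined under 25 kb. The peaks added were those of the Tfcp2l1 window, whose gap of 13983 bp was then joined. The share of all autosomal peaks at that spacing was not computed. At the spacing of 12500 bp, 11 members lay in stretches of at least 2 and 3 (21.4%) were single, beside 70.7% of autosomal peaks that were single. The median score was 3.74 without the Esrrb window and 5.60 without that of Tfcp2l1, which puts it on the other side of the list's median. Tiles at a score of at least 10 were not compared for Tfcp2l1 and Tbx3, which hold no such peak, and motifs in peaks were not run without an mm9 genome. No paired analysis was possible because every group is a single library. Peaks below the list's threshold, which depends on an unknown depth, are not in it.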
